A study of Mus musculus with 9 samples.

Results

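The Hedgehog pathway was followed through 9 of its genes, Hhip, Ptch1, Smo, Sufu, Gli1, Gli2, Gli3, Shh and Ihh, out of 19938 genes measured on 9 arrays. The 9 are a list of pathway names. Each is represented by the probe set selected on its mean level over the 9 arrays, the highest per symbol, and each turned out to have only 1 probe set with that symbol alone. Hhip was chosen by its difference between origins, with earlier results of these data known. Its values between origins are therefore given as a description without a test, while the other 8 genes were tested. The samples were lines re-derived from tumors of 4T1, a mouse breast cancer line known for metastasis from the mammary fat pad: 3 lines from brain metastases (4T1-BM2), 3 from lung metastases (4T1-LM2) and 3 from primary tumors (4T1-T2), called brain, lung and primary lines here and numbered as the mice of each origin. All groups share the 4T1 background, no group carries a further allele or agent in the labels, and the age of the mice is not given in the sources used here. By the series' design text each line came from a different one of 9 mice, was frozen as a separate line, and was thawed, cultured and extracted in parallel with the others, so the values describe cells in culture. The 3 lines of an origin share a line name whose meaning is not given in the sources used here, and lines that shared a selected ancestor would count as fewer than 3 independent samples.

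Hedgehog ligands are secreted proteins that bind the receptor Patched. Without ligand, Patched holds back Smoothened, and the Gli transcription factors are kept inactive or cut into repressors with the help of Sufu. With ligand, Smoothened is released, full-length Gli proteins enter the nucleus, and genes such as Gli1, Ptch1 and Hhip are transcribed, the last 2 of which feed back on the signal. Hhip protein binds the ligands at the cell surface and takes them away from Patched. In the mouse mammary gland the pathway is largely held off during normal development, with Gli3 acting as a repressor.

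Hhip lies on the minus strand of chromosome 8 at 79965850 to 80058060 (GRCm38.p6). The bases just before its annotated start are shown because Hhip is the member on which the results turn. They are the reference sequence from RefSeq (GRCm38.p6, chr8:80058061-80058258, minus strand, written 5′ to 3′ along the gene), not a sequence read in these lines, and the capitals mark the palindrome known as the cAMP response element, which was picked out after the sequence had been read.
Hhip: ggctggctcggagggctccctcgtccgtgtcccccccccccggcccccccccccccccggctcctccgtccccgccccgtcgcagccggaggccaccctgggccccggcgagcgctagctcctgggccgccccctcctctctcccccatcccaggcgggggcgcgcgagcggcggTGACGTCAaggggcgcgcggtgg
The first capital stands 23 bases before the gene's start. Windows of 300 bases, 250 before to 50 after a listed start site, were held for 7 of the 9 members (all but Gli1 and Shh). The Hhip window reached 198 bases before the annotated start used above, so its start site is a different base, inside the annotated gene. The Gli motif GACCACCCA, searched on both strands, was in 0 of these 7 windows and in 0.253% of 32851 windows of all genes. TGACGTCA, which reads the same on both strands, was in 1 of the 7, that of Hhip, and in 1.79% of all windows. The windows of the members had 56.3% (Sufu) to 76.3% (Ptch1) G and C, with 73.7% for Hhip, against a median of 52.7% over all windows. These matches describe the letters in the windows only.

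Hhip was lower in every brain line than in every lung and primary line. Its log2 level was 7.76, 7.43 and 6.75 in brain lines 1 to 3, 8.88, 9.48 and 8.90 in lung lines 1 to 3, and 8.87, 8.59 and 8.88 in primary lines 1 to 3. The highest brain line lay 0.83 log2 units below the lowest primary line and 1.12 below the lowest lung line, and brain line 3 was the lowest of the 9. Such full separation of 3 lines from 3 occurred in 17.8% of all genes for brain and primary lines and in 16.9% for brain and lung lines. The means were 7.31 ± 0.52 in brain lines, 9.09 ± 0.34 in lung lines and 8.78 ± 0.16 in primary lines (SD, n = 3 lines each). The log2 difference of brain from primary lines was -1.47 ± 0.24 (standard error of the limma model of all 9 arrays), a 2.76-fold lower level, and that of brain from lung lines was -1.78 ± 0.24, a 3.43-fold lower level. Lung and primary lines differed by 0.31 ± 0.24, which is less than the SD of the lung lines. Although all 3 lung lines stood above all 3 primary lines, the nearest lung and primary lines were only 0.01 apart. Without lung line 2 the difference between lung and primary lines was 0.11. In RNA of whole cultures, fewer cells with Hhip and less Hhip per cell cannot be told apart. In order of mean level, lung lines came first, primary lines next at less than 1 SD of the lung lines, and brain lines last and apart from both.

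**Figure D1:**
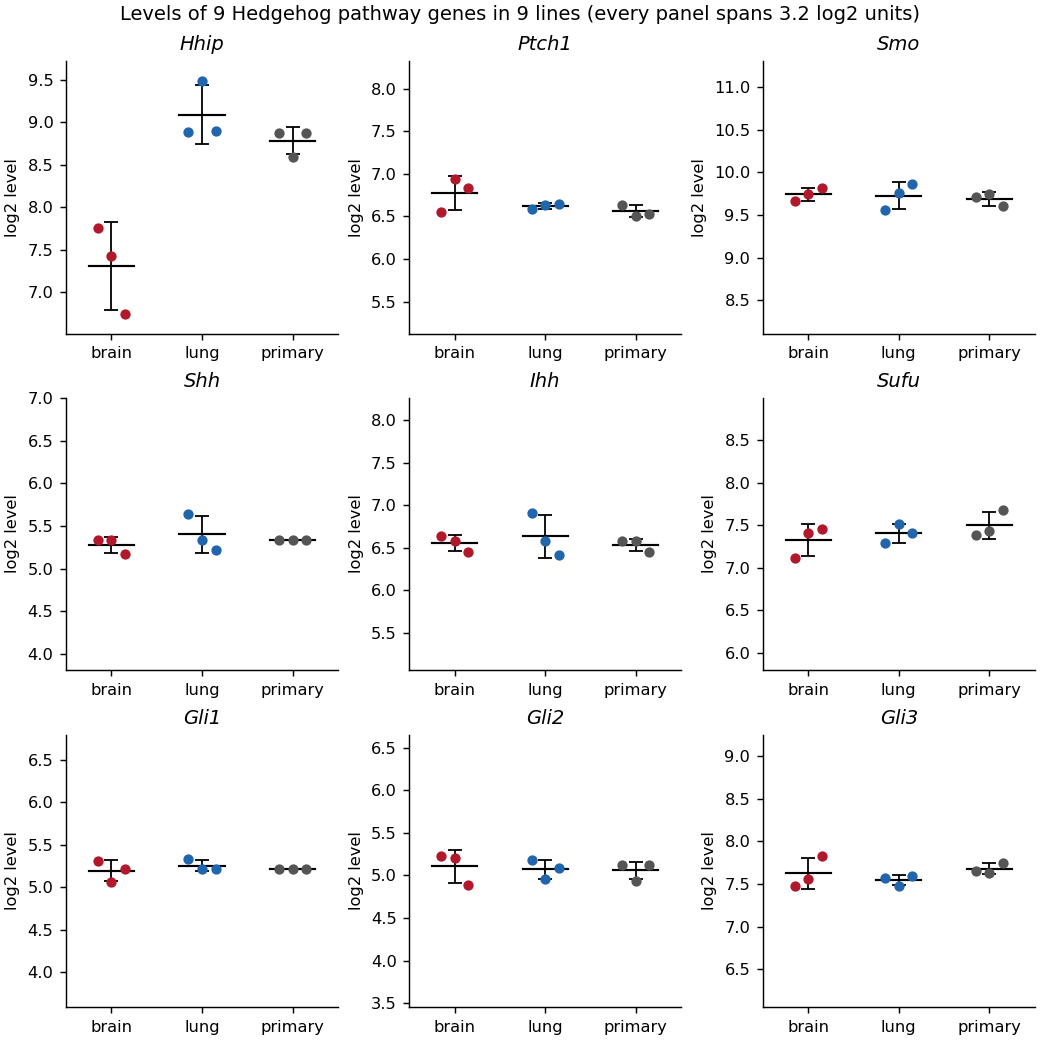
Log2 level (vertical axis) of each of the 9 Hedgehog pathway genes in the brain, lung and primary lines (horizontal axis); each point is 1 line, the bar is the mean of 3 lines and the whiskers are 1 SD, and all panels have the same vertical span. Hhip separates the brain lines, at 6.75 to 7.76, from the other 6 lines, at 8.59 to 9.48, while the other 8 genes spread over at most 0.56 log2 units.

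Hhip also varied among the brain lines more than among the lines of the other origins, with SDs of 0.52 in brain, 0.34 in lung and 0.16 in primary lines. Brain line 3, which had the lowest Hhip, was also the array whose values strayed most from the medians of the probe sets (interquartile range 0.201, against 0.116 to 0.186 in the other 8 arrays). Without it the log2 difference of brain from primary lines was -1.19 and that of brain from lung lines was -1.495. Over the 9 lines Hhip spanned 2.74 log2 units, where the median gene spanned 0.42. Hhip was chosen by its difference between origins in these values, so a wide span comes with the choice.

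None of the other 8 pathway genes passed the test between any 2 origins. Calls rest on limma with Benjamini-Hochberg adjustment over all 19938 genes and a threshold of 0.05, which called 3.13% of them in brain against primary lines, 1.98% in brain against lung lines and 0% in lung against primary lines. The 8 genes had adjusted p from 0.320 to 0.972, 0.544 to 0.949 and 0.975 to 1.00 in these comparisons, 0 of the 8 had an unadjusted p under 0.05 in any (15.8%, 14.9% and 4.74% of all genes did), and 0 passed the limma F test over the 3 origins, which called 2.36% of all genes. A count of 0 of 8 is near these backgrounds. The 95% intervals of the log2 differences lay between -0.43 and 0.44 for brain against primary lines. A change of the size seen in Hhip (-1.47) lay outside the interval of each of the 8 genes. For Gli1, Gli2 and Shh, with primary means of 5.22, 5.06 and 5.33, such a fall would end below 4.21. That is the median level of probe sets with no gene symbol, so a fall of that size might not be measurable in these dim genes. Brain and primary lines were fully separated in 17.8% of all genes and in 0 of these 8.

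**Figure D2:**
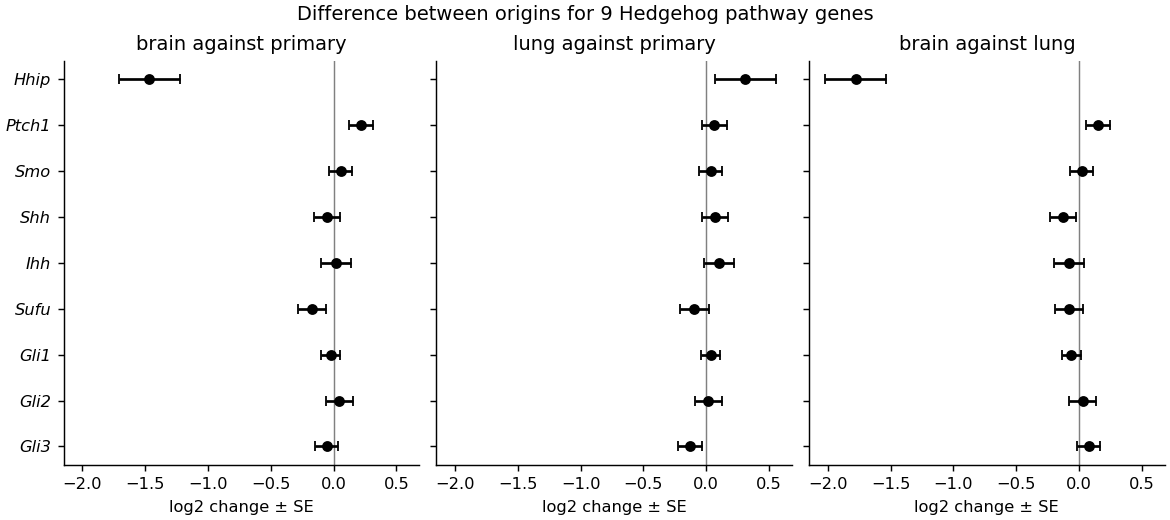
Log2 change (horizontal axis) of the 9 genes (vertical axis) in 3 comparisons; points are the differences between means of 3 lines and whiskers are 1 standard error of the limma model. Hhip stands at -1.47 and -1.78 in both comparisons of brain lines, and the other 8 genes lie between -0.17 and 0.22 in every panel.

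The ligand genes differed little between origins. Shh, the gene of Sonic hedgehog, had log2 levels of 5.33, 5.33 and 5.17 in brain lines, 5.65, 5.34 and 5.22 in lung lines and 5.33 in each of the 3 primary lines. Lung line 1 was the highest and the origins overlapped, with a difference of -0.05 ± 0.10 for brain against primary lines (SE, 95% interval -0.29 to 0.18, limma adjusted p = 0.891). Ihh, the gene of Indian hedgehog, had 6.63, 6.57 and 6.45 in brain lines, 6.91, 6.57 and 6.41 in lung lines and 6.57, 6.57 and 6.45 in primary lines. Lung line 1 was again the highest, and brain and primary lines differed by 0.02 ± 0.12 (95% interval -0.24 to 0.28, adjusted p = 0.972). The array of lung line 1 also had the highest median level over all probe sets, 5.19 against 5.06 to 5.14 in the other arrays. Its part in the high Shh and Ihh values of that line was not tested. Shh, Ihh and Gli1 each gave exactly the same value on several arrays (5, 4 and 5 of the 9), as 19.1% of all genes did on at least 4 arrays, so the SD of 0 in primary lines for Shh and Gli1 rests on exactly equal values. All 9 members had means above the median level of probe sets with no gene symbol (4.21) in every origin. With no detection call, whether the dimmer ones, such as Gli1, Gli2 and Shh, were expressed cannot be told from these values.

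Ptch1, the receptor that the ligands bind and Hhip competes with, was the member with the largest difference after Hhip, and it did not pass. Its log2 levels were 6.55, 6.94 and 6.84 in brain lines, 6.59, 6.64 and 6.65 in lung lines and 6.64, 6.51 and 6.53 in primary lines. Brain lines 2 and 3 stood above the other 7 lines, while brain line 1 lay among them. Brain lines were 0.22 ± 0.10 from primary lines (SE, 95% interval -0.0013 to 0.44, limma adjusted p = 0.320) and 0.15 ± 0.10 from lung lines (adjusted p = 0.544), with a sign opposite to that of Hhip. Without brain line 1 the adjusted p of Ptch1 in brain against primary lines was 0.0640. Smo, the transducer that Patched holds back, had 9.67, 9.75 and 9.82 in brain lines, 9.55, 9.76 and 9.86 in lung lines and 9.71, 9.75 and 9.60 in primary lines. The origins overlapped fully, and brain and primary lines differed by 0.06 ± 0.09 (95% interval -0.14 to 0.26, adjusted p = 0.856).

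Downstream of the receptor, Sufu and the 3 Gli genes overlapped between brain and primary lines. Sufu, which restrains the Gli proteins, had 7.12, 7.40 and 7.46 in brain lines, 7.29, 7.52 and 7.40 in lung lines and 7.38, 7.43 and 7.68 in primary lines. Brain line 1 was the lowest and primary line 3 the highest, and the difference of brain from primary lines was -0.17 ± 0.11 (95% interval -0.43 to 0.08, adjusted p = 0.554). Gli1, an activator that is itself transcribed when the pathway is on, had 5.31, 5.06 and 5.22 in brain lines, 5.33, 5.22 and 5.22 in lung lines and 5.22 in each of the 3 primary lines. Brain and primary lines differed by -0.02 ± 0.08 (95% interval -0.19 to 0.15, adjusted p = 0.943), and the brain lines lay on both sides of the primary value. Gli2, the main activator of the response, had 5.23, 5.21 and 4.88 in brain lines, 5.18, 4.95 and 5.09 in lung lines and 5.12, 4.94 and 5.12 in primary lines. Brain line 3 was its lowest line, and brain and primary lines differed by 0.05 ± 0.11 (95% interval -0.19 to 0.29, adjusted p = 0.912).

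Gli3, which is best known as the source of a repressor form, had 7.48, 7.56 and 7.83 in brain lines, 7.57, 7.48 and 7.59 in lung lines and 7.66, 7.63 and 7.75 in primary lines. Brain line 3 was the highest line, and brain and primary lines differed by -0.05 ± 0.09 (95% interval -0.26 to 0.15, adjusted p = 0.876). Gli3 was the only one of the 8 whose groups did not overlap in a comparison: all lung lines were below all primary lines, by 0.13 ± 0.09 on average, which did not pass (limma adjusted p = 0.975), and 8.71% of all genes had groups that did not overlap there.

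Of the 3 members that are transcribed in response to the signal, Hhip was at -1.47 in brain against primary lines, Ptch1 at 0.22 and Gli1 at -0.02. The last 2 did not pass, and the sign of Gli1 turned with quantile normalization again (0.0064), with each array centred on its median (0.04) and without brain line 2 (0.05). A wider list of 37 measured genes known from other work as Gli targets, in various tissues, held 1 that rose and 5 that fell in brain against primary lines, and 31 that did not pass. Over all genes 1.56% rose and 1.57% fell. The median log2 change of the list was -4.4e-04, beside 0.0048 over all genes. The list was written with earlier results of these data known.

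Ccnd2, the gene of the cell cycle regulator cyclin D2, was the one that rose. It had log2 levels of 9.66, 9.85 and 9.31 in brain lines, 7.69, 7.32 and 7.33 in lung lines and 7.03, 6.94 and 6.25 in primary lines. All brain lines were above all others, by 2.86 ± 0.21 against primary lines (SE, limma adjusted p = 7.8e-04) and 2.16 ± 0.21 against lung lines (adjusted p = 0.00315). Foxc2, a forkhead transcription factor gene, had 7.29, 7.40 and 7.21 in brain lines, 8.30, 8.26 and 8.14 in lung lines and 8.31, 8.31 and 8.49 in primary lines. It fell by 1.07 ± 0.08 on the log2 scale against primary lines (adjusted p = 8.7e-04) and by 0.93 ± 0.08 against lung lines (adjusted p = 0.00203). Foxl1, a forkhead gene known in the mesenchyme of the mouse gut, had 5.44, 5.52 and 5.06 in brain lines, 6.05, 6.11 and 5.88 in lung lines and 6.04, 6.17 and 6.16 in primary lines. It fell by 0.78 ± 0.12 against primary lines (adjusted p = 0.00929) and by 0.67 ± 0.12 against lung lines (adjusted p = 0.0221).

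The other 3 that fell in brain against primary lines, named after their values had been seen, were Igfbp6, which encodes a binding protein of insulin-like growth factors (-0.66 ± 0.14, adjusted p = 0.0352), Pax6, a transcription factor gene of eye and neural tube (-0.76 ± 0.17, adjusted p = 0.0444), and Bmi1, a Polycomb gene (-0.42 ± 0.10, adjusted p = 0.0495). Against lung lines the Gli target list held 1 that rose and 2 that fell, Ccnd2, Foxc2 and Foxl1, and 34 that did not pass, where 0.913% of all genes rose and 1.07% fell. Ccnd2 and Foxc2 kept both calls in all 18 alternative fits. The Foxl1 call against lung lines did not hold when lung line 1, 2 or 3 was left out. The calls of Igfbp6, Pax6 and Bmi1 held in 7, 8 and 6 of 18 alternative fits.

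Genes for the release and reception of the ligands held 2 that fell in brain against primary lines, 0 that rose and 15 that did not pass, of 17 measured, where 1.57% of all genes fell and 1.56% rose (median log2 change 0.03, beside 0.0048 over all genes). Gas1, a cell surface co-receptor that binds the ligands and in mouse embryos promotes the signal, had 5.94, 5.78 and 5.72 in brain lines, 6.17, 6.13 and 6.58 in lung lines and 6.51, 6.48 and 6.70 in primary lines. The brain lines were below all others, by 0.75 ± 0.12 on average against primary lines (SE, limma adjusted p = 0.0134). Against lung lines Gas1 was at -0.48 ± 0.12 and did not pass (adjusted p = 0.0922). The call against primary lines was lost without brain line 2 (adjusted p = 0.0516) and with every probe set tested (adjusted p = 0.0539). Disp1, which encodes the transporter that releases lipid-bearing ligand from the cell, had 7.83, 7.84 and 7.67 in brain lines, 7.91, 7.89 and 7.93 in lung lines and 8.16, 8.12 and 8.08 in primary lines. It fell by 0.34 ± 0.07 against primary lines (adjusted p = 0.0284). That call held in 8 of 18 alternative fits. It no longer passed when brain line 2, brain line 3, lung line 2 or any of the primary lines was left out. Its other, dimmer probe set was at -0.19 ± 0.08 (adjusted p = 0.431 over all probe sets).

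**Figure D3:**
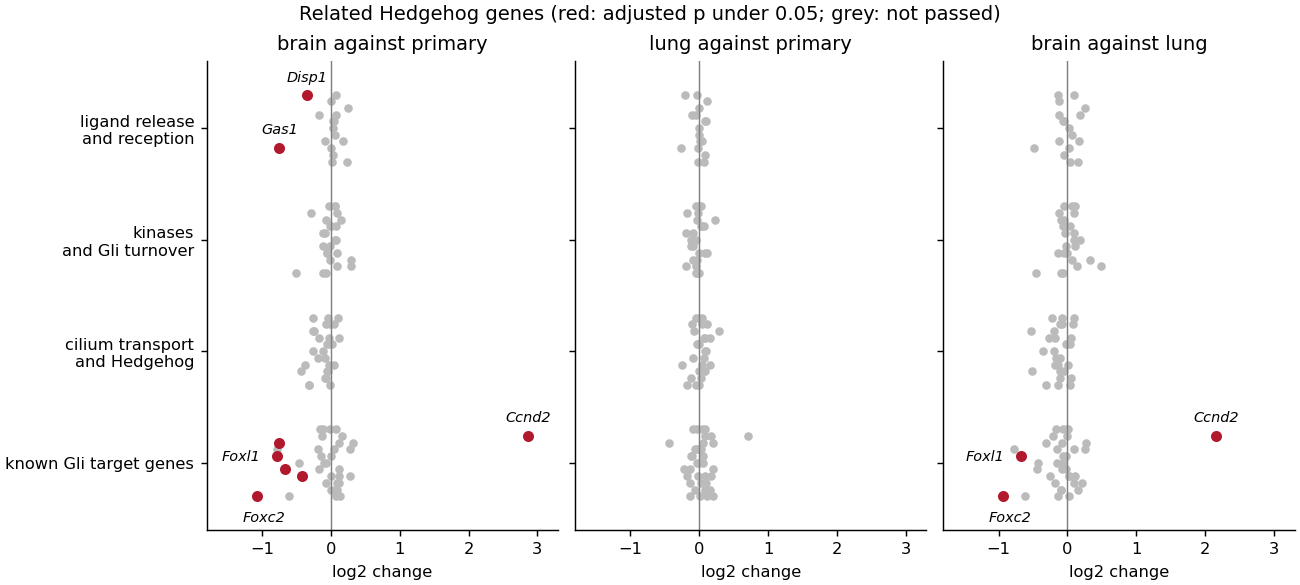
Log2 change (horizontal axis) of 109 related Hedgehog genes in 4 lists (vertical axis, points spread for visibility) in 3 comparisons; red points passed limma at an adjusted p under 0.05 and grey points did not. Brain against primary lines has 8 red points (Gas1, Disp1, Ccnd2, Foxc2 and Foxl1 are labelled), brain against lung lines has 3, and lung against primary lines has 0.

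Other genes of ligand handling did not pass. Dhh, the third ligand gene, was at 0.18 ± 0.12 in brain against primary lines (SE, limma adjusted p = 0.530). Hhat, which encodes the enzyme that attaches palmitate to the ligands, was at 0.25 ± 0.11 (adjusted p = 0.320). The co-receptor genes Boc and Cdon were at 0.23 ± 0.17 (adjusted p = 0.596) and 0.08 ± 0.13 (adjusted p = 0.868), so that of the 3 co-receptor genes measured Gas1 alone passed, with no test of the difference between them.

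Of 26 measured genes of kinases and Gli turnover and 29 of the cilium, the antenna-like organelle in which the signal is relayed, 0 passed in any comparison. In brain against primary lines 1 of the 26 and 5 of the 29 had an unadjusted p under 0.05, as did 15.8% of all genes. Kif7, a kinesin of the cilium that acts on Gli proteins, was at -0.08 ± 0.11 (limma adjusted p = 0.820). Spop, an adaptor for Gli degradation, was at 0.14 ± 0.08 (adjusted p = 0.435), and Gpr161, a receptor that represses the pathway in the cilium, at -0.01 ± 0.11 (adjusted p = 0.989). The median log2 change of the cilium list was -0.07 in brain against primary lines and -0.11 in brain against lung lines, beside 0.0048 and -0.0096 over all genes.

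Over all 109 related genes, 8 passed in brain against primary lines, 0 in lung against primary lines and 3 in brain against lung lines, beside 3.13%, 0% and 1.98% of all genes. At an unadjusted p under 0.05 there were 17, 5 and 20 of the 109, beside 15.8%, 4.74% and 14.9% of all genes, where limma was the only tool run. The count of 8 was 5, 3 and 4 without brain lines 1, 2 and 3, 5 without any 1 of the lung lines, 6 without primary line 1, 4 without primary line 2 and 5 without primary line 3.

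The 5 genes whose pattern was nearest to that of Hhip were Olfm1, Pla2g7, Abcc3, Dmp1 and Aldh3a2. Likeness was measured as the root mean square difference between levels centred on their mean over the 9 lines, among 14205 genes with a mean of at least 4.21. That difference was 0.206 for Olfm1, 0.240 for Pla2g7, 0.243 for Abcc3, 0.273 for Dmp1 and 0.280 for Aldh3a2, against a median of 0.836 over all these genes and 0.789 (Shh) to 0.926 (Ptch1) for the other pathway members. A gene at the same level in all 9 lines would stand at 0.832. The values of the other members therefore do not tell an unlike pattern from little variation. Olfm1, which encodes the secreted protein olfactomedin 1, had 6.70, 6.84 and 5.85 in brain lines, 8.25, 8.39 and 7.95 in lung lines and 7.93, 8.11 and 7.93 in primary lines. As in Hhip, brain line 3 was its lowest and lung line 2 its highest line. Abcc3, an efflux transporter gene, had 5.22, 5.14 and 4.80 in brain lines, 6.41, 6.74 and 6.86 in lung lines and 6.79, 6.26 and 6.50 in primary lines, again with brain line 3 lowest. Since these genes were picked for following Hhip, no test is given for them.

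**Figure D4:**
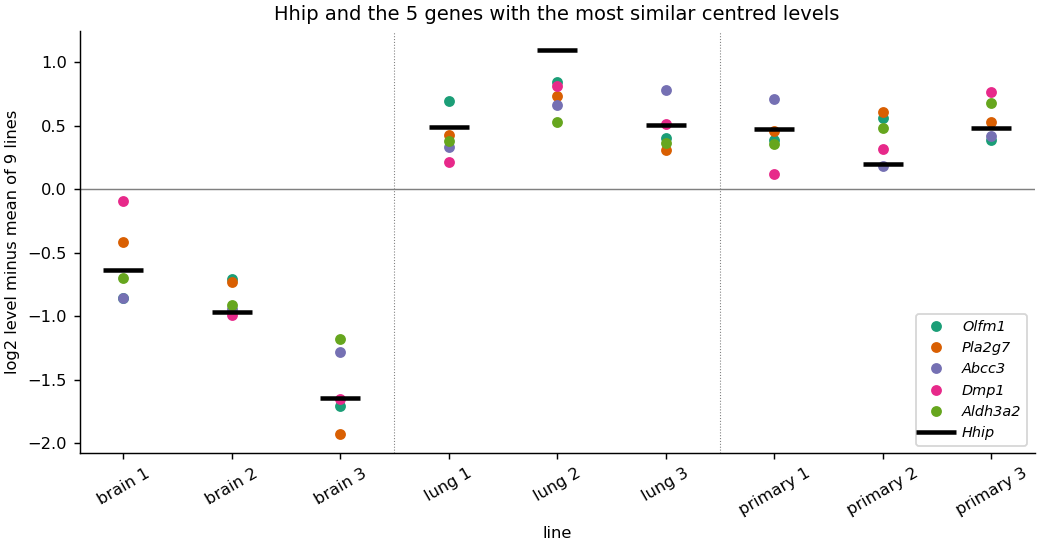
Log2 level minus the mean of the 9 lines (vertical axis) in each line (horizontal axis) for Hhip (black bars) and the 5 genes of the most similar pattern (coloured points). All 6 genes lie below their mean in the 3 brain lines, lowest in brain line 3, and above it in the 6 lung and primary lines.

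The genes that neighbour Hhip on chromosome 8 had smaller differences than Hhip. Of the 10 nearest tested genes, 5 on each side, the log2 changes in brain against primary lines ran from -0.51 to 0.13 with a median of -0.07, and 1 passed, where 3.13% of all genes did. It was Smad1, a transducer of BMP signals, which, like Hhip, was lower in brain lines and fell by 0.32 ± 0.07 (SE, limma adjusted p = 0.0433), with levels of 8.35, 8.29 and 8.31 in brain lines, 8.50, 8.45 and 8.61 in lung lines and 8.56, 8.63 and 8.72 in primary lines. Gab1, an adaptor of receptor tyrosine kinases, had the lowest value and did not pass (-0.51 ± 0.17, adjusted p = 0.158). Anapc10 and 4930505O20Rik, the tested genes on either side of Hhip, were at -0.16 ± 0.11 and 0.13 ± 0.12 (adjusted p = 0.573 and 0.717).

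**Figure D5:**
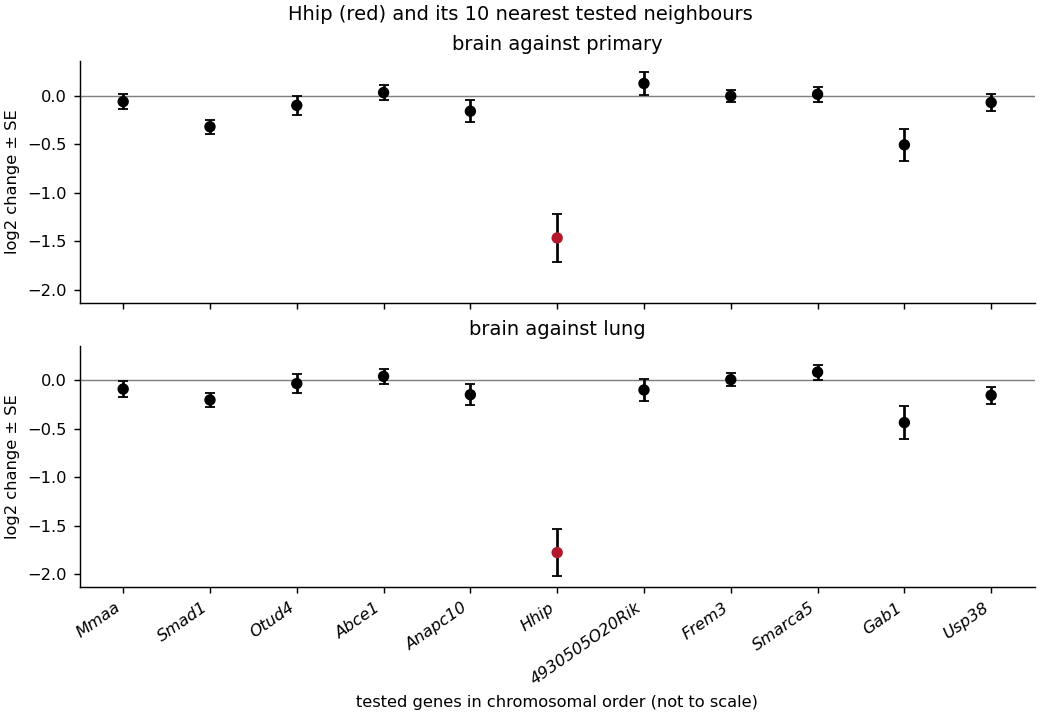
Log2 change with 1 standard error (vertical axis) of Hhip (red) and the 5 nearest tested genes on each side in chromosomal order (horizontal axis, not to scale) for brain against primary lines (top) and brain against lung lines (bottom). Hhip, at -1.47 and -1.78, lies below all 10 neighbours, the lowest of which is Gab1 at -0.51 and -0.44.

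The lines carried the markers of a mammary carcinoma. All 10 epithelial markers had means above 4.21 in every origin, and the mean of the list was 9.91 to 10.04 in brain lines, 9.10 to 9.44 in lung lines and 8.98 to 9.40 in primary lines. In brain against primary lines 3 of the 10 rose, among them Cdh1 (E-cadherin, 0.90, limma adjusted p = 0.0386) and Krt14 (1.62, adjusted p = 0.00568), where 1.56% of all genes rose. The other 7 did not pass: Krt8 (-0.08), Krt18 (0.07), Krt5 (0.16), Epcam (0.45), Krt7 (0.55), Cldn7 (1.34) and Cldn4 (1.39). The median log2 change of the list was 0.73, beside 0.0048 over all genes. Against lung lines 2 of the 10 rose, Krt14 (1.84, adjusted p = 0.00631) and Cldn7 (1.54, adjusted p = 0.0442), where 0.913% of all genes rose. The part of these epithelial genes in the Hhip difference was not tested. Markers of fibroblasts, astrocytes, the oligodendrocyte lineage, neurons, lung epithelium, macrophages and microglia, endothelium, and pericytes and smooth muscle held 0 called genes in any comparison. Over all genes 3.13% were called in brain against primary lines, 0% in lung against primary lines and 1.98% in brain against lung lines. A count of 0 in lists this small is near these shares and does not tell whether such cells were present. The mean of the pericyte and smooth muscle list was 4.41 to 4.44 in brain lines, 4.51 to 4.58 in lung lines and 4.58 to 4.85 in primary lines, lowest in the brain lines as Hhip was, and its part in the Hhip difference was not tested. Within it Acta2, the gene of smooth muscle actin, was at -1.15 in brain against primary lines (adjusted p = 0.122). Its levels were 5.22, 5.21 and 5.26 in brain lines and 6.03, 7.43 and 5.69 in primary lines, with primary line 2 far above the others. Tagln (-0.42) and Pdgfrb (-0.31) were also lower in brain than in primary lines. Myh11 (-0.05), Rgs5 (-0.02), Cnn1 (0.04) and Des (0.05) differed little. For lung epithelium the list mean was 4.47 to 4.56 in brain lines, 4.40 to 4.55 in lung lines and 4.48 to 4.53 in primary lines. The surfactant gene Sftpc, its defining marker, averaged 4.26 in brain lines, 4.14 in lung lines and 4.23 in primary lines, near 4.21. Of the 7 lung epithelium markers, 6, 5 and 6 had means above 4.21 in brain, lung and primary lines, among them Ager (5.76, 5.76 and 5.74). In the oligodendrocyte lineage list 5 of 6 did in every origin. Within the epithelial list Krt5 averaged only 4.23 in primary lines. A mean above 4.21 therefore does not tell cell types apart. The epithelial list differed from these lists in its mean level, 8.98 to 10.04 over the lines.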

How the data were processed

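The deposited values are log2 intensities per probe set, for which the authors used RMA, per the submitters' processing notes. RMA corrects background, normalizes quantiles between arrays and summarises probes, which removes differences in total signal. The log base was read from the range of the values. No source used here states the version of RMA or any genome build. The array medians lay between 5.06 and 5.19, the highest in lung line 1. Arrays have no depth, no detection call was given, and precision is limited by having 3 arrays per origin.

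Of 35557 probe sets, 21789 had 1 gene symbol in the platform annotation, 1621 had several and 12147 had none. Genes were named from the first kind, with the probe set of the highest mean, which left 19938 genes. Of 120 related symbols, 109 were found among the tested genes, 1 by way of an older symbol. Others are not analysed here.

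Differences were tested with limma 3.58.1 in R 4.3.3 (lmFit and eBayes, two-sided) fitting the 3 origin means on all 9 arrays together (residual degrees of freedom 6, prior 3.72), with Benjamini-Hochberg adjustment over 19938 genes. The code was tested on simulated data. Permuting 3 lines against 3 exactly gives no p below 0.1, so this was not run. Members and lists were chosen with earlier results of these data known. Named were all members, 9 related genes set by name, up to 3 called genes per list and comparison, the 5 genes nearest to Hhip in pattern and its 10 neighbours. The 2 comparisons with primary lines share those lines, as the 2 with brain lines do.

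For brain and lung lines, the deviations of same-numbered lines from their origin means had correlations across genes of 0.284, 0.130 and 0.241, all over 0.1. This pairing comes from the data alone: the titles number the mice 1 to 3 within each origin, and the series' design text gives 9 different mice. Alternatives were repeated quantile normalization, median centring, no dim genes, a robust prior with an intensity trend, weights per array, the mouse number as a block, other uses of probe sets, only the 6 arrays compared and each line left out.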

Additional observations from a re-analysis of the deposited data

Results flagged for a closer look

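Hhip stood on opposite sides of the primary lines in the 2 kinds of metastasis line: all 3 brain lines were below all 3 primary lines and all 3 lung lines above them. The difference between the 2 changes was -1.78 on the log2 scale and was not tested, because Hhip was singled out with results known, and the nearest lung and primary lines were 0.01 apart. Lung and primary lines were fully separated in 8.71% of all genes, and the lung difference from primary lines, 0.31 ± 0.24 (SE), was within the SD of the lung lines. Of the 37 Gli target genes 3 were flagged because they passed limma in brain against lung lines, where 1.98% of all genes passed. That comparison is the difference between the changes of brain and lung lines from primary lines. It was 2.16 for Ccnd2 (adjusted p = 0.00315), -0.93 for Foxc2 (adjusted p = 0.00203) and -0.67 for Foxl1 (adjusted p = 0.0221). These p-values are the ones that flagged the genes, and the list was written with earlier results known, so they add no separate support. Brain lines were higher than every lung line in 3 of 3 lines for Ccnd2 and lower in 3 of 3 for Foxc2 and Foxl1. Brain and lung lines were fully separated in 16.9% of all genes.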

How the results depend on the processing

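The count of 0 called among the 8 pathway genes other than Hhip did not change in any comparison or in the F test under any alternative run, and the smallest adjusted p among them was 0.0640. Signs of these uncalled differences turned in 11 of 144 gene-by-setting fits for brain against primary lines, 9 of 144 for lung against primary lines and 12 of 144 for brain against lung lines. Hhip kept its sign in all 3 comparisons. Leaving out single lines gave log2 differences of -1.69 to -1.19 for brain against primary lines, 0.11 to 0.41 for lung against primary lines and -2.001 to -1.495 for brain against lung lines, and the other alternatives gave -1.47 to -1.37, 0.30 to 0.44 and -1.81 to -1.70. The count of 8 related genes called in brain against primary lines was 3 to 6 without single lines, 5 with each array centred on its median, 3 with every probe set tested and 3 with only the 6 arrays compared, and 7 to 9 under the other 6 alternatives. Of all features, 3.40% were called with median centring, 0.692% with every probe set and 0.988% with the 6 arrays, beside 3.13% in the model reported. For brain against lung lines the count of 3 was 2 to 4 without single lines and 5 with array weights. With the mouse number as a replicate block, the Hhip difference of brain from lung lines was -1.78 ± 0.23 and 4 related genes were called there. Same-numbered lines all correlated above 0.1 only for brain and lung lines. By the series' design text they came from different mice, so what such lines share is not known. In brain against primary lines, whose same-numbered lines correlated at 0.0666, -7.4e-04 and -0.0442, the block gave 7 related genes. The causes of these moves were not tested.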
